A study of Mus musculus with 20 samples.

Results

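The liver was compared with the small intestine in 8 of the 20 RNA sequencing libraries of the series: 4 liver libraries and 4 small intestine libraries, taken by the tissue named in each library's column. Each tissue had 2 wild-type (WT) libraries and 2 libraries from Nsun6-KO mice, in which CRISPR/Cas9 had removed exons 3 and 4 of Nsun6, the gene of an mRNA cytosine methyltransferase, from the whole animal on a C57BL/6J background. All tissues came from 8-week-old female mice with no treatment given beside the genotype, and both genotypes entered each side of the comparison. The sources did not give the gut segment taken, or whether libraries with the same replicate number came from one animal, so p-values measure the spread between these samples. The genes described are 310 members of 9 lists, out of 55401 genes in the count table: 14 apolipoproteins, 22 genes of lipoprotein assembly and secretion, 26 of lipoprotein remodelling and uptake, 28 of lipid absorption, 20 of bile acid synthesis and transport, 68 phase 1 and 57 phase 2 xenobiotic enzymes, 27 xenobiotic transporters and receptors, and 48 transcription factors of endoderm-derived organs. Of these, 308 passed the filter on low counts, and Neurog3 and Ugt1a2 did not.

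Liver and small intestine both secrete triglyceride-rich lipoproteins built on apolipoprotein B, the liver as very-low-density lipoprotein and the intestine as chylomicrons carrying dietary fat. Microsomal triglyceride transfer protein (Mttp) loads lipid onto apolipoprotein B in the endoplasmic reticulum, and the intestine takes up fatty acids, monoglycerides, cholesterol and, in its last part, bile acids that the liver makes from cholesterol. Both organs arise from endoderm, share transcription factors such as HNF4A, and hold the enzymes that oxidise and conjugate foreign compounds.

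Levels are given as CPM (read counts scaled to the library's total) after TMM scaling, and a fold change is the log2 fold change of liver minus small intestine from the edgeR fit. A gene was called when its Benjamini-Hochberg adjusted p over all genes tested was under 0.1 and the fold was over 2. Total counts were 32121286 and 28391003 in the WT intestine libraries, 27240407 and 26414043 in the KO intestine libraries, 32890390 and 31182605 in WT liver, and 32381398 and 44508197 in KO liver. Nsun6 itself, the deleted gene, stood at 7.81 and 4.91 CPM in WT intestine and 7.62 and 4.11 CPM in KO intestine, and at 5.76 and 3.89 CPM in WT liver and 3.27 and 3.61 CPM in KO liver. The genotypes overlapped in intestine and KO liver lay below WT liver, so whole-gene counts over a gene with a partial deletion were no check of the genotype labels.

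The tissue labels matched the markers. All 12 hepatocyte markers were higher in liver, with a summed level of 174520, 273670, 246310 and 238560 TPM (counts scaled by gene length and library) in the liver libraries against 190.1 and 31.3 TPM in WT and 73.8 and 34.7 TPM in KO intestine. All 12 enterocyte, 6 goblet and 6 Paneth cell markers were higher in intestine. Albumin alone took 11.8% of the counts of WT liver replicate 1 and 18.9, 17.7 and 16.2% of those of WT replicate 2, KO replicate 1 and KO replicate 2.

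The intestine libraries stood apart by replicate number rather than by genotype. Over 19277 genes, log2 CPM correlated at r = 0.934 between the replicate 1 libraries of WT and KO and at 0.965 between the replicate 2 libraries, but between 0.894 and 0.905 across the numbers. Within liver, r ran from 0.974 to 0.984, and between the tissues from 0.595 to 0.647. Both replicate 1 libraries held the markers of the last part of the small intestine: the 7 distal markers, led by the bile acid binding protein Fabp6, summed to 43139 and 42466 TPM in replicate 1 (WT and KO) and to 230.3 and 208 TPM in replicate 2. The 7 proximal markers, led by Adh6a, summed to 117 and 126 TPM in replicate 1 and to 3280.4 and 2805 TPM in replicate 2. Of these markers, 5 proximal and 4 distal ones are also members of the lists, so they are a description and not a second line of evidence. For genes described by their values whose call differed between the pairs, liver is therefore also set against the 2 intestine libraries of each number alone. Correlations across genes are descriptions, since genes are not independent replicates.

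Across all genes, 4170 of 19277 genes tested were called higher in liver (21.6%) and 5392 higher in small intestine (28%), so 49.6% were called in one direction or the other. Of the 308 members, 148 were higher in liver and 83 higher in intestine, 75% in all, and 77 were not called. The tissues did not overlap for 226 members, beside 54.3% of all genes. The median log2 fold change was 1.29 over the members and -0.14 over all genes tested. When libraries were scaled by total counts, without TMM factors, the median over all genes moved to -0.73 and the share of calls that were higher in liver fell from 43.6% to 26.5%, and the members then divided into 129 higher in liver and 99 higher in intestine. In such bulk samples, fewer cells of a type and less RNA per cell cannot be told apart. With the 2 intestine libraries of either number alone, 199 of the 231 called members were called the same way both times. Over all genes tested this held for 7227 of the 9562 called.

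**Figure D1:**
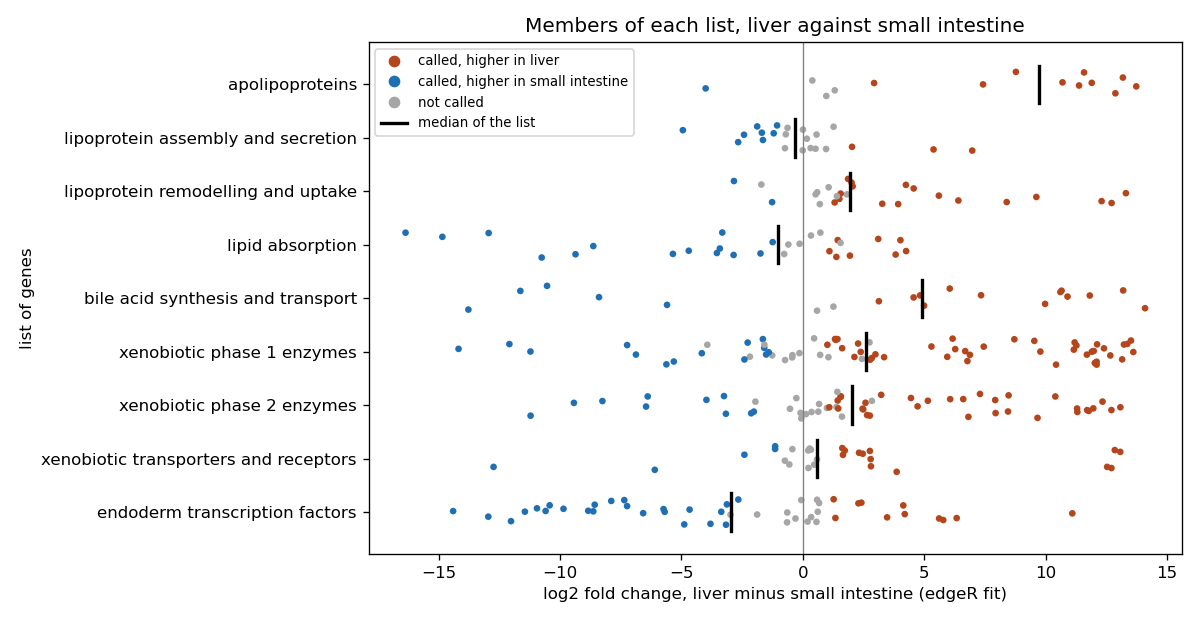
Log2 fold change (liver minus small intestine, x axis) of each member that passed the filter, by list (y axis), with the median of each list as a black bar. Apolipoproteins and bile acid genes have medians of 9.74 and 4.91 and endoderm transcription factors one of -2.98. Fitted values of genes without a count in one tissue depend on the prior count.

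Most apolipoproteins were far higher in liver, and a few were present at high levels in both organs. Of 14 apolipoprotein genes, 10 were higher in liver (71.4%, beside 21.6% of all genes) and 1 (Apoa4) was higher in intestine (7.14%, beside 28%). The other 3 (Apob, Apoa1 and Apoc2) were not called, and the list's median was 9.74 on the log2 scale. Per length, Apoa2 was the most abundant of the list in liver at a mean of 36434 TPM, and Apoa1 in intestine at 16851 TPM. The summed level of the list was 76068, 77131, 81058 and 80614 TPM in the liver libraries, 9863 and 16842 TPM in intestine replicate 1 (WT and KO) and 18584 and 33581 TPM in replicate 2.

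Apob (chr12:7977648-8016835, mm10), the structural protein of chylomicrons and very-low-density lipoproteins, stood at 2667 and 3276 CPM in the replicate 1 intestine libraries (WT and KO), 4182 and 5007 CPM in the replicate 2 libraries and 5487, 8299.8, 7474 and 8295 CPM in liver. All 4 liver libraries lay above all 4 intestine libraries, but the fold was under 2 and the gene was not called (log2 fold change 0.97 with SE 0.38, adjusted p = 0.0604). It was called without intestine WT replicate 2, intestine KO replicate 2 or liver WT replicate 1 (1.11, 1.12 and 1.06 on the log2 scale) and against replicate 1 alone (1.33), but not against replicate 2 alone (0.69). Apoa1, the main protein of high-density lipoprotein, stood at 3163 and 5296 CPM in the replicate 1 intestine libraries (WT and KO), 7022 and 11243 CPM in the replicate 2 libraries and 4086, 10664, 9712 and 9955 CPM in liver. The tissues overlapped, with liver WT replicate 1 below 3 of the 4 intestine libraries, and no difference was called (log2 fold change 0.39 with SE 0.51, adjusted p = 0.535). Its sign turned to -0.20 with total counts and to -0.25 with limma on TPM, and it was called higher in liver against replicate 1 alone (1.06) and not against replicate 2 alone (-0.063).

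Apoa4 (chr9:46240696-46243459), a chylomicron and high-density lipoprotein component, was the apolipoprotein called higher in intestine. It stood at 22.1 and 37.9 CPM in the replicate 1 intestine libraries (WT and KO), 871 and 1931 CPM in the replicate 2 libraries and 20.02, 39.5, 59.05 and 55.9 CPM in liver. Only the replicate 2 intestine libraries exceeded liver, whereas the replicate 1 libraries lay inside the liver range. The call (log2 fold change -4.003 with SE 1.32, adjusted p = 0.0327) rested on the replicate 2 libraries, since the log2 fold change was 0.52 against replicate 1 alone and -4.97 against replicate 2 alone. Without intestine WT or KO replicate 2 the adjusted p was 0.226 and 0.263. Apoc3, an inhibitor of triglyceride clearance, lies in the same gene cluster and stood at 12.8 and 27.01 CPM in the replicate 1 intestine libraries (WT and KO), 265 and 718 CPM in the replicate 2 libraries and 1442, 1635, 1830 and 2118 CPM in liver. Every liver library exceeded every intestine library (log2 fold change 2.94 with SE 1.12, adjusted p = 0.0548), with a replicate 2 excess within intestine of 4.58 on the log2 scale, and the call was lost without liver WT replicate 1, WT replicate 2 or KO replicate 2 (adjusted p 0.101, 0.108 and 0.107). Apoc2, the cofactor of lipoprotein lipase, had 1 count in the replicate 1 intestine libraries and 485 in replicate 2, against 11.1, 6.66, 10.8 and 9.32 CPM in liver. It was not called over all 4 intestine libraries (log2 fold change 1.32) or against replicate 2 alone (0.30), but was called higher in liver against replicate 1 alone, with its 1 count, and with separate means per replicate number (4.70, adjusted p = 8.16e-05).

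The other apolipoproteins were far lower in intestine than in liver. Apoe, the ligand by which remnant particles are cleared, stood at 50.7, 44.5, 23.1 and 88.8 CPM in intestine and 4476, 9688, 10806 and 11406 CPM in liver (log2 fold change 7.42 with SE 0.67, adjusted p = 5.43e-05). Apoa5, an activator of triglyceride clearance, ranged from 0 to 0.185 CPM in intestine and from 433 to 973 CPM in liver (log2 fold change 13.19 with SE 0.86, adjusted p = 1.11e-05). Apof, a regulator of cholesteryl ester transfer, ranged from 0 to 0.129 CPM and from 605 to 1000 CPM, the largest log2 fold change of the list at 13.74. None of these 3 genes overlapped between the tissues. Apoa2, Apoc1, Apoc4, Apoh, Apom and Apon, the remaining members, had log2 fold changes between 8.78 and 12.88.

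Genes of lipoprotein assembly were called about as often as all genes, 50% beside 49.6%. Of 22 genes of assembly and secretion, 8 were higher in intestine (36.4%, beside 28% of all genes), 3 higher in liver (13.6%, beside 21.6%) and 11 were not called, and the median of the list was -0.32 on the log2 scale beside -0.14 over all genes. Those higher in intestine were Dgat1, Mttp, Tm6sf2, Rbm47, Soat2, Apobec1, Soat1 and Lpcat3, of which Mttp, Soat1 and Lpcat3 were not called against replicate 1 alone. Those higher in liver were the carboxylesterases Ces1d and Ces1g and the lipid droplet protein Plin2. Within the intestine, 11 of its members were called higher in replicate 2 and 1 (A1cf) in replicate 1, where 5.69% and 4.28% of all genes tested were.

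Mttp (chr3:138089854-138144968), which transfers triglyceride onto nascent apolipoprotein B, stood at 544 and 525 CPM in the replicate 1 intestine libraries (WT and KO), 2639.6 and 3382 CPM in the replicate 2 libraries and 231, 315, 285 and 283 CPM in liver. Every intestine library exceeded every liver library, by far more in replicate 2 than in replicate 1 (log2 fold change -2.66 with SE 0.68, adjusted p = 0.011). The log2 fold change was -0.93 and not called against replicate 1 alone, and -3.43 against replicate 2 alone. Dgat1, which makes triglyceride in the enterocyte, stood at 352 and 596 CPM in the replicate 1 intestine libraries (WT and KO), 990.4 and 938 CPM in the replicate 2 libraries and 25.4, 25.2, 22.2 and 20.9 CPM in liver, with no overlap (log2 fold change -4.94 with SE 0.41, adjusted p = 3.58e-05). Dgat2, the second triglyceride synthase, stood at 27.9 and 33.9 CPM in the replicate 1 intestine libraries (WT and KO), 281 and 243 CPM in the replicate 2 libraries and 256, 398, 329 and 428 CPM in liver. Its replicate 2 libraries reached the lower liver values while replicate 1 lay below all of liver, and no difference was called (log2 fold change 1.27 with SE 0.76, adjusted p = 0.19), although it was called without intestine WT replicate 2 (log2 fold change 2.20). Against replicate 1 alone Dgat2 was called higher in liver (3.52) and against replicate 2 alone it was not (0.42), and with separate means per replicate number it was called (1.95, adjusted p = 5.75e-05). Apobec1, the deaminase that edits Apob mRNA to the short form carried by chylomicrons, stood at 65.6, 124, 55.3 and 104 CPM in intestine and 28.3, 22.5, 30.7 and 30.2 CPM in liver, again with no overlap (log2 fold change -1.64 with SE 0.28, adjusted p = 0.00177). Ces1d, a hepatic triglyceride hydrolase, ranged from 5.54 to 8.57 CPM in intestine and from 824 to 944 CPM in liver (log2 fold change 6.98, adjusted p = 3.41e-06). Ces1g, a paralog, ranged from 1.92 to 10.7 CPM and from 214 to 319 CPM (log2 fold change 5.38, adjusted p = 0.000479).

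**Figure D2:**
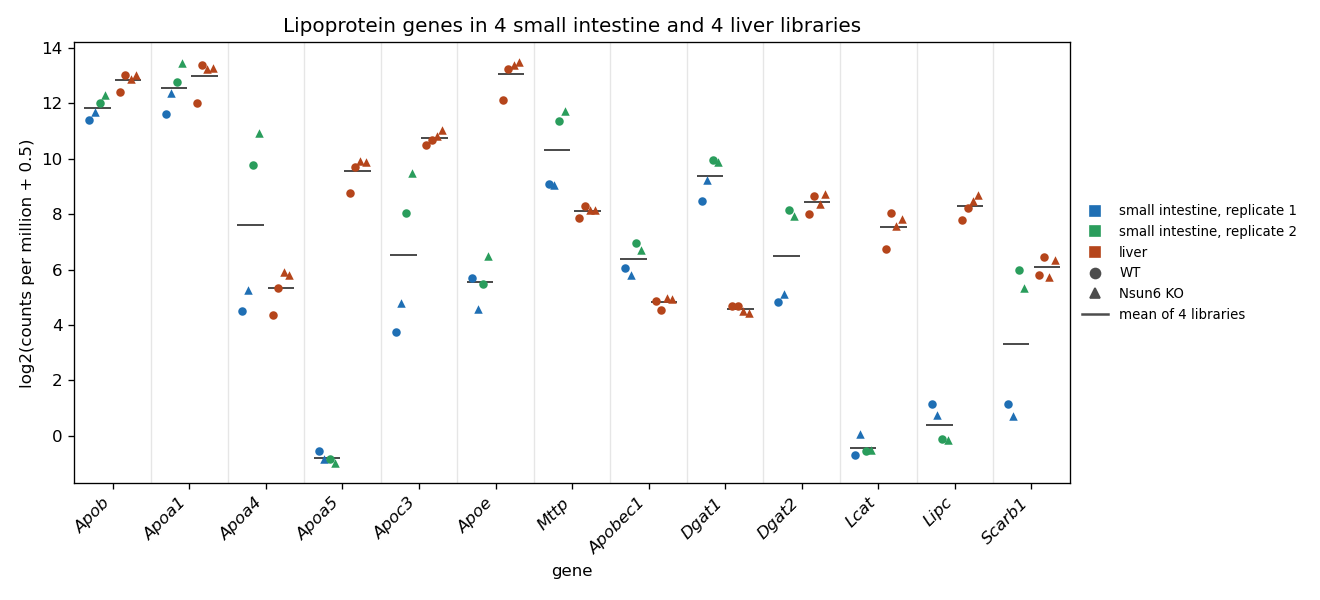
Level of 13 lipoprotein genes as log2(CPM + 0.5) on the y axis in each of the 4 small intestine and 4 liver libraries, with bars at the mean of 4 libraries. Apoa4, Apoc3, Mttp, Dgat2 and Scarb1 divide by replicate number within intestine, with replicate 2 log2 differences of 5.48, 4.58, 2.49, 3.10 and 5.16.

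Genes that remodel lipoproteins in plasma or take them up were mostly higher in liver, 17 of 26 (65.4%, beside 21.6% of all genes). In intestine 2 were higher, Pon2 and Sort1 (7.69%, beside 28%), and the list's median log2 fold change was 1.94. Lcat, which esterifies cholesterol in high-density lipoprotein, ranged from 0.115 to 0.542 CPM in intestine and from 106 to 266 CPM in liver (log2 fold change 9.62 with SE 0.57, adjusted p = 7.96e-06). Lipc, hepatic lipase, ranged from 0.388 to 1.73 CPM and from 219 to 414 CPM (log2 fold change 8.40 with SE 0.65, adjusted p = 2.67e-05). Pon1, an esterase carried by high-density lipoprotein, stood at 1677, 2795, 2691 and 2957 CPM in liver and from 0.114 to 0.993 CPM in intestine (log2 fold change 12.72). These 3 secreted proteins did not overlap between tissues. In the other direction, Sort1, a sorting receptor, stood at 83.2, 49.5, 102 and 46.6 CPM in intestine against 7.90, 11.8, 8.08 and 11.5 CPM in liver (log2 fold change -2.84, adjusted p = 0.00018), and Pon2, an intracellular paralog of Pon1, at 92.4, 187, 84.5 and 188 against 36.7, 75.8, 64.9 and 52.6 CPM (log2 fold change -1.26, adjusted p = 0.0177), without overlap. Pon2 was called against replicate 2 alone (-1.71) and not against replicate 1 alone (-0.61).

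Of the uptake receptors, Lrp1 and Vldlr were higher in liver, while Scarb1 was not called and divided the intestine libraries. Scarb1, the high-density lipoprotein receptor, stood at 1.73 and 1.14 CPM in the replicate 1 intestine libraries (WT and KO), 63.5 and 40.2 CPM in the replicate 2 libraries and 55.6, 87.8, 52.1 and 79.96 CPM in liver (log2 fold change 1.41 with SE 1.12, adjusted p = 0.315). Replicate 2 intestine overlapped the lower liver values and replicate 1 lay far below all of liver. Against replicate 1 alone its log2 fold change was 5.60, which was called, and against replicate 2 alone 0.44, which was not. With separate means per replicate number it was called higher in liver (2.99, adjusted p = 5.6e-06). Saa1, an acute-phase apolipoprotein of high-density lipoprotein that also acts in gut defence, stood at 732 and 41.6 CPM in the replicate 1 intestine libraries (WT and KO), 0.157 and 0.0647 CPM in the replicate 2 libraries and 27.2, 24, 19.9 and 36.3 CPM in liver. Intestine WT replicate 1 was far above every other library and replicate 2 far below liver, so the sign of the difference (-1.71, not called) turned to 1.87 without intestine WT replicate 1. It was -3.26 against replicate 1 alone and 7.86 against replicate 2 alone, each called, and it was called higher in liver with separate means per replicate number (2.42, adjusted p = 0.0661).

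Of 28 lipid absorption genes, 14 were higher in intestine (50%, beside 28% of all genes). Another 8 were higher in liver (28.6%, beside 21.6%) and 6 were not called. The median of the list was -1.004 on the log2 scale, beside -0.14 over all genes. The count higher in liver was 5 without liver WT replicate 2, KO replicate 1 or KO replicate 2. Npc1l1, the cholesterol uptake protein of the brush border, stood at 262, 266, 357 and 425 CPM in intestine and had no count in any liver library, so it was at least 12343-fold higher in intestine (floor of 3 counts over the 4 liver libraries, covering counting error only). This floor and the counting intervals take every count as an independent read. The stored counting command shows no read-pair option and even values were in excess (57.5 to 58.9% of values from 10 to 50 counts), so both mates of a fragment may have been counted, in which case each bound given as at least a fold would be up to 2 times lower and each counting interval wider. Enpp7, Pnliprp2 and Pla2g2a, a sphingomyelinase and lipases of the gut lumen, also had no count in liver. Mogat2, which re-esterifies absorbed monoglyceride, stood at 117, 286, 181 and 329 CPM in intestine and from 0.236 to 0.535 CPM in liver (log2 fold change -9.36 with SE 0.53, adjusted p = 6.69e-06). Rbp2, the enterocyte retinol-binding protein, stood at 103 and 328 CPM in the replicate 1 intestine libraries (WT and KO), 4525 and 5067 CPM in the replicate 2 libraries and 0, 0.0854, 0.0788 and 0.175 CPM in liver (log2 fold change -14.85 with SE 1.98, adjusted p = 0.000482). These genes did not overlap between tissues with either pair of intestine libraries.

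The fatty acid-binding proteins behaved differently from one another. Fabp2, the intestinal form, stood at 4307 and 6571 CPM in the replicate 1 intestine libraries (WT and KO), 8679 and 8346 CPM in the replicate 2 libraries and 121, 221, 148 and 193 CPM in liver, higher in every intestine library (log2 fold change -5.35 with SE 0.47, adjusted p = 5.05e-05). Fabp1, the form shared by liver and proximal intestine, stood at 8.59 and 109 CPM in the replicate 1 intestine libraries (WT and KO), 4464 and 5574 CPM in the replicate 2 libraries and 4879, 6778, 9639 and 9159.9 CPM in liver. Replicate 2 intestine reached the lower liver values and replicate 1 did not, and no difference was called (log2 fold change 1.55 with SE 1.47, adjusted p = 0.396), while the difference between the intestine replicates was 6.97 on the log2 scale (adjusted p = 0.00881). Fabp1 was called higher in liver against replicate 1 alone (log2 fold change 7.65, adjusted p = 0.000331) and with separate means per replicate number (4.001, adjusted p = 0.00123), but not against replicate 2 alone (0.57). Per length, Fabp1 averaged 27323 TPM in liver and 13235 TPM in intestine, and Fabp2 352 and 22786 TPM. Cd36, a fatty acid transporter, stood at 11.6 and 20.9 CPM in the replicate 1 intestine libraries (WT and KO), 74.1 and 81.1 CPM in the replicate 2 libraries and 131, 169, 122 and 92.4 CPM in liver. Liver was higher in every library (log2 fold change 1.44 with SE 0.61, adjusted p = 0.0776), but the call was lost without any 1 of the liver libraries or intestine KO replicate 1, with adjusted p up to 0.169. Its log2 fold change was 2.98 against replicate 1 alone, called, and 0.70 against replicate 2 alone, not called. Abcg5, a subunit of the transporter that returns plant sterols to the lumen, stood at 241, 312, 252 and 280.5 CPM in intestine and 129.5, 185, 155 and 169 CPM in liver, with no overlap but a fold under 2 (log2 fold change -0.77, adjusted p = 0.0126). It was called higher in intestine with total counts (log2 fold change -1.36) and with limma on TPM (-1.44). Among genes higher in liver, Mgll, monoglyceride lipase, ranged from 7.21 to 14.3 CPM in intestine and from 132 to 245 CPM in liver (log2 fold change 4.26, adjusted p = 4.88e-06).

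Bile acid genes split by step. All 8 enzymes of synthesis and conjugation in the list and the transporters Abcb11, Abcb4 and Slc10a1 were higher in liver. With the receptor pair Fgfr4 and Klb, this made 13 of 20 (65%, beside 21.6% of all genes). The 5 genes higher in intestine (25%, beside 28% of all genes) were Fabp6, Slc51a, Slc51b and Slc10a2, of bile acid recovery in the gut, and the hormone Fgf15. The nuclear receptors Nr1h4 and Nr0b2 were not called. Nr1h4 was called higher in liver against replicate 2 alone (2.75) and Nr0b2 against replicate 1 alone (6.71), while the other pair gave -0.23 and 0.28. The count of 5 fell to 2 without intestine WT or KO replicate 1 and to 3 without liver WT replicate 2, KO replicate 1 or KO replicate 2. The median log2 fold change of 4.91 stood beside -0.14 over all genes. Cyp7a1, the rate-limiting enzyme of bile acid synthesis, stood at 561, 482, 379.7 and 369 CPM in liver and had 3 counts in the 4 intestine libraries together, a ratio of 21039 with a 95% counting interval of 7199 to 102030 if the counts were independent. Akr1d1, the reductase of the sterol ring, ranged from 0 to 0.0924 CPM in intestine and from 322 to 513 CPM in liver (log2 fold change 13.20, adjusted p = 7.2e-06).

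Among the bile acid genes higher in intestine, Slc10a2, Fabp6 and Fgf15 were high in the replicate 1 intestine libraries only. Slc10a2 (chr8:5083219-5105351), the brush border bile acid transporter, stood at 2037 and 3176 CPM in the replicate 1 intestine libraries (WT and KO), 3.65 and 6.47 CPM in the replicate 2 libraries and 24.2, 14.5, 33.5 and 38.4 CPM in liver. Replicate 1 intestine was far above liver and replicate 2 was below it, so that the call (log2 fold change -5.59 with SE 1.98, adjusted p = 0.0422) rested on the replicate 1 libraries: the log2 fold change was -6.58 against replicate 1 alone and 2.44, called higher in liver, against replicate 2 alone. Without intestine WT or KO replicate 1, or 3 of the 4 liver libraries, the call was lost, with adjusted p up to 0.363. Fabp6, the cytosolic bile acid carrier of the ileum, stood at 5413 and 4925 CPM in the replicate 1 intestine libraries (WT and KO), 0.189 and 0.324 CPM in the replicate 2 libraries and 0.441, 0.171, 0.118 and 0.0582 CPM in liver. Replicate 2 intestine was at the level of liver, and the call (log2 fold change -13.78, adjusted p = 0.0135) was lost without intestine WT or KO replicate 1 (adjusted p 0.167 and 0.106) and was not made against replicate 2 alone (-0.64, beside -14.71 against replicate 1). Fgf15, the hormone by which the ileum represses Cyp7a1, stood at 44.2 and 7.96 CPM in replicate 1 intestine and had no count in replicate 2 or in liver, so that WT replicate 1 held most of its counts. Its call (adjusted p = 0.0651) was lost without intestine WT or KO replicate 1 or without any 1 liver library (adjusted p 0.036 to 0.155 over all 8 omissions). Slc51a, a subunit of the basolateral bile acid exporter, stood at 639 and 733 CPM in the replicate 1 intestine libraries (WT and KO), 191 and 192 CPM in the replicate 2 libraries and 0.472, 0.214, 0.276 and 0.204 CPM in liver (log2 fold change -10.54, adjusted p = 2.17e-05). Slc51b, its partner, stood at 239 and 219 CPM in the replicate 1 intestine libraries (WT and KO), 51.3 and 39.6 CPM in the replicate 2 libraries and 1.01, 0.683, 0.0788 and 0.175 CPM in liver (log2 fold change -8.39, adjusted p = 0.000269). Both were higher than liver in every intestine library and higher in replicate 1 than in replicate 2.

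**Figure D3:**
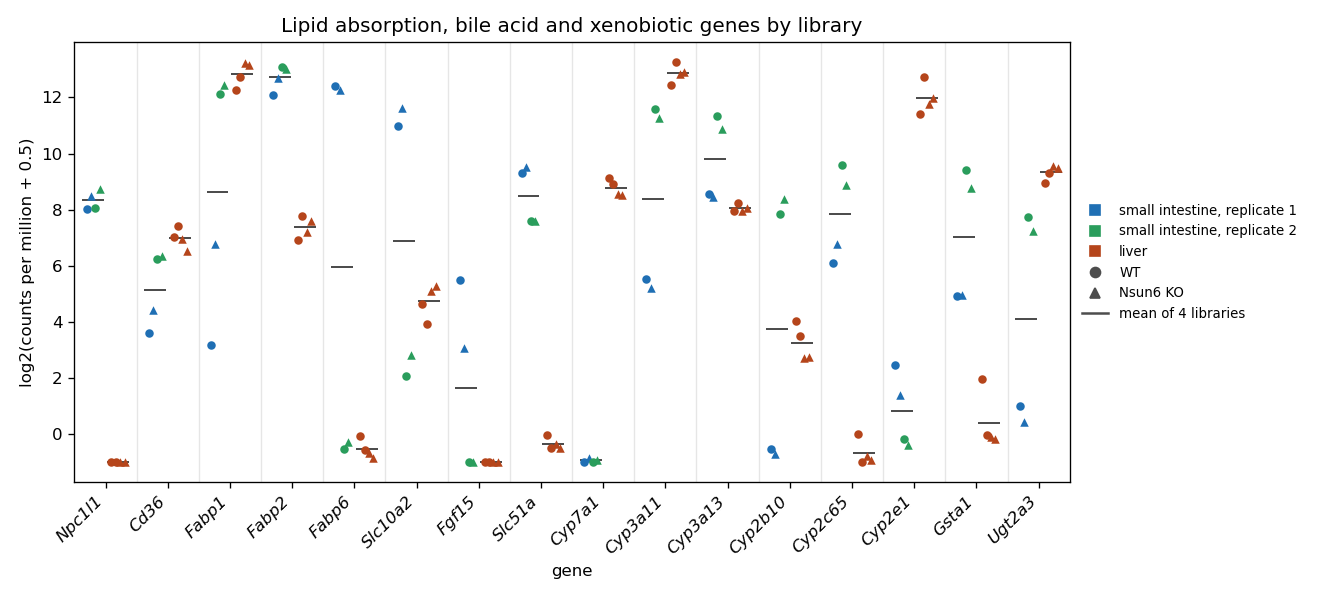
Level of 16 lipid absorption, bile acid and xenobiotic genes as log2(CPM + 0.5) on the y axis in each library, with bars at the mean of 4 libraries. Fabp6, Slc10a2 and Fgf15 are high only in the replicate 1 intestine libraries, while Fabp1, Cyp3a11, Cyp2b10 and Ugt2a3 are high in replicate 2 and low in replicate 1.

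Promoters were read for these genes because HNF4, CDX and GATA factors are regulators of liver or intestine and were themselves measured. RefSeq promoters (GRCm38.p6, 250 bases before to 50 after the start) were matched for 239 of the 310 members, 285 promoters in all. Both strands were searched for CAAAGTCCA for HNF4, CAATAAA for CDX and AGATAA for the GATA factors. The HNF4 letters were in 11 of the 285 member promoters (3.86%), beside 0.475% of all 32851 promoters and 0.585% of those of the genes tested. The members with them were Cyp8b1, Cyp2c40, Cyp2c65, Cyp2c68, Cyp2c69, Cyp2c70, Cyp3a11, Cyp3a16, Cyp3a41a, Nat8 and Sult1b1, most of them paralogs of the Cyp2c and Cyp3a families. They were in 5% of 140 promoters of members higher in liver and in 4.23% of 71 promoters of members higher in intestine. The CDX letters were in 1.43% and 7.04% and the GATA letters in 17.9% and 4.23% of these 2 sets, against 2.78% and 7.56% of promoters of the genes tested and 4.6% and 11.2% of all promoters. Among all tested genes higher in liver and in intestine, the CDX letters were in 2.93% and 2.77% and the GATA letters in 8.56% and 7.82%. A match is a description of letters only. The promoters of 4 genes of different pattern follow, 5′ to 3′, with matches on either strand in capitals. Cyp8b1 (chr9:121916256-121916555, minus strand), the sterol 12-hydroxylase of bile acid synthesis, was chosen for its HNF4 letters after its values were seen and stood at 69.6, 106, 101 and 82.5 CPM in liver and 0, 0.126, 0.057 and 0 CPM in intestine. Cyp3a11 (chr5:145879805-145880104, minus strand) also holds the HNF4 letters, Fabp2 (chr3:122894822-122895121, plus strand) the CDX letters, and Slc10a2 (chr8:5105238-5105537, minus strand) has 3 CDX matches.
Cyp8b1: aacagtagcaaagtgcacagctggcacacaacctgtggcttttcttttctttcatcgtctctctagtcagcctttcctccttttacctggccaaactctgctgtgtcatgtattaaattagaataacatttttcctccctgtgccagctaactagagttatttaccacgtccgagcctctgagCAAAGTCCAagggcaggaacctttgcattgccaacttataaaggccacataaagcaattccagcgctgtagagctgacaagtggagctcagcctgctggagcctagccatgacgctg
Cyp3a11: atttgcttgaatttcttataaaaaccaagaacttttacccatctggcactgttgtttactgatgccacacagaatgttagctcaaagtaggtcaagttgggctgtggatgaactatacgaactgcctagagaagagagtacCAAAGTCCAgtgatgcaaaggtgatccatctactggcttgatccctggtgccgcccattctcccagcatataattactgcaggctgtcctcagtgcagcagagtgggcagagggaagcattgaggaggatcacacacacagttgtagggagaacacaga
Fabp2: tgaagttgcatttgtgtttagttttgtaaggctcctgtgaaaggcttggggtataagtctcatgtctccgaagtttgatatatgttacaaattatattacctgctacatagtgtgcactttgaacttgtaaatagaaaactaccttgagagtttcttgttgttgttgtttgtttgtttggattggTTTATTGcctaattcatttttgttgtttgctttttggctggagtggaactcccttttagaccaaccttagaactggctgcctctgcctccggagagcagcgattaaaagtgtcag
Slc10a2: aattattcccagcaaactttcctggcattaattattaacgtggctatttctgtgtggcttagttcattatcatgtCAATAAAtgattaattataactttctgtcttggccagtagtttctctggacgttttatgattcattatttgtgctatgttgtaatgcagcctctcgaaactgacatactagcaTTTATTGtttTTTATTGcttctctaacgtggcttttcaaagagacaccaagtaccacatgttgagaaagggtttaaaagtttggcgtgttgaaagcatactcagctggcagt

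Phase 1 enzymes, which oxidise, reduce or hydrolyse foreign compounds, were higher in liver for 41 of 68 genes (60.3%, beside 21.6% of all genes). They were higher in intestine for 14 (20.6%, beside 28%), and the list's median was 2.59 on the log2 scale. Reads of the Cyp2c, Cyp3a and Ces families can be split between near-identical paralogs, so single members of these families are uncertain. Cyp2e1, which oxidises ethanol and acetone, ranged from 0.259 to 4.97 CPM in intestine and stood at 2738, 6798, 3454 and 4045 CPM in liver (log2 fold change 11.20 with SE 1.26, adjusted p = 0.000185), and it was the most abundant of the list in liver per length, at a mean of 3909.5 TPM. Cyp1a2, which oxidises caffeine, ranged from 0 to 0.315 CPM and stood at 439, 454, 221 and 199.6 CPM (log2 fold change 11.16 with SE 0.77, adjusted p = 1.44e-05). Cyp2c50 and Cyp2c37, epoxygenases, had the largest log2 fold changes of the list, 13.61 and 13.52, with 1160 to 1957 and 1068 to 2029 CPM in liver. Cyp2c29 was higher in liver at 566, 944, 996 and 1277 CPM, against 0.37 and 0.114 CPM in replicate 1 and 13.6 and 40.6 CPM in replicate 2 intestine (log2 fold change 6.28, adjusted p = 0.0135).

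Other cytochromes and esterases were higher in intestine. Cyp2c65 stood at 68.7 and 109 CPM in the replicate 1 intestine libraries (WT and KO), 762 and 471 CPM in the replicate 2 libraries and 0.504, 0, 0.0788 and 0.0291 CPM in liver (log2 fold change -11.22 with SE 1.40, adjusted p = 0.00035). Cyp2c55, a paralog, stood at 72.2, 119, 289 and 63.6 CPM in intestine and 6.01, 3.25, 2.13 and 2.36 CPM in liver (log2 fold change -5.31, adjusted p = 0.000387). Cyp2c66 stood at 0.277 and 0.77 CPM in replicate 1 and 235 and 129 CPM in replicate 2 intestine, with 2 counts in liver, a ratio of 4684 with a counting interval of 1296 to 38678 if these were not mates of 1 fragment. Adh6a, an alcohol dehydrogenase, stood at 22.4 and 11.4 CPM in the replicate 1 intestine libraries (WT and KO), 1912 and 1476 CPM in the replicate 2 libraries and 0, 0, 0.0788 and 0.0874 CPM in liver (log2 fold change -14.18, adjusted p = 0.00206). Ces2e, a carboxylesterase, was higher in intestine at 678, 1242, 927 and 1512 CPM, against 158, 231, 248 and 181 CPM in liver (log2 fold change -2.40 with SE 0.33, adjusted p = 0.000564). All 5 were higher in every intestine library than in every liver library, as was Cyp3a13, the most abundant of the list in intestine per length, at 374 and 349 CPM in the replicate 1 intestine libraries (WT and KO), 2560.4 and 1875 CPM in the replicate 2 libraries and 245, 300.1, 245 and 268 CPM in liver (log2 fold change -2.27, adjusted p = 0.0227). Cyp3a13 was at -0.44 on the log2 scale and not called against replicate 1 alone, was at -3.05 and called against replicate 2 alone, and moved to -1.505 without intestine WT replicate 2.

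Cyp3a11, the main drug-oxidising cytochrome of mouse liver and one of the genes with HNF4 letters, stood at 45.3 and 36.1 CPM in the replicate 1 intestine libraries (WT and KO), 3078 and 2459.8 CPM in the replicate 2 libraries and 5509.9, 9730.5, 7347 and 7631 CPM in liver. Liver exceeded every intestine library, yet no difference was called (log2 fold change 2.44 with SE 1.34, adjusted p = 0.156), and the replicate 2 libraries exceeded replicate 1 by 6.09 on the log2 scale. It was called against either pair alone (7.55 and 1.45), without intestine WT replicate 2 (3.93) and with separate means per replicate number (4.48, adjusted p = 1.71e-05). Cyp2b10, induced through the receptor CAR, stood at 0.185 and 0.114 CPM in the replicate 1 intestine libraries (WT and KO), 228 and 335 CPM in the replicate 2 libraries and 15.96, 10.9, 5.99 and 6.14 CPM in liver. Liver lay between the pairs, and the log2 fold change was 5.97 against replicate 1 and -5.003 against replicate 2, each called. Cyp1a1, the classical target of the dioxin receptor, did the same at lower levels, 0.0462 and 0.114 CPM in the replicate 1 intestine libraries (WT and KO), 16.2 and 4.72 CPM in the replicate 2 libraries and 0.882, 1.71, 1.10 and 0.408 CPM in liver, with log2 fold changes of 3.58 and -3.21. Over all 4 intestine libraries Cyp2b10 was not called in edgeR (log2 fold change -3.93, adjusted p = 0.133) but was called higher in intestine by DESeq2 (-4.002, adjusted p = 0.0476) and in 1 edgeR fit of all 20 libraries (-3.99, adjusted p = 0.0486). Cyp2b10 was also called higher in intestine without intestine WT or KO replicate 1 (-4.51 and -4.25), and Cyp1a1 without intestine WT replicate 1 (-2.56). Over the omission of each library in turn, Cyp2b10 ran from -4.51 to -1.54 (adjusted p up to 0.691). Cyp1a1 ran from -2.65 to -0.19 (adjusted p up to 0.94). Within intestine, 33 phase 1 members were called higher in replicate 2 and 4 in replicate 1, where over all genes tested 5.69% and 4.28% were.

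Phase 2 enzymes, which attach glucuronate, sulfate, glutathione or smaller groups, were higher in liver for 32 of 56 genes (57.1%, beside 21.6% of all genes). They were higher in intestine for 10 (17.9%, beside 28%), and the median log2 fold change was 2.04. Those without a count in intestine were Sult1e1 and Sult3a2. Sult2a8, a bile acid and steroid sulfotransferase, ranged from 0 to 0.453 CPM in intestine and from 1593 to 2395 CPM in liver (log2 fold change 13.08, adjusted p = 3.22e-05), Ugt3a2, a glycosyltransferase, from 0.063 to 0.114 and from 362 to 747 CPM (log2 fold change 12.71, adjusted p = 2.34e-06), and Ugt2b1, a glucuronosyltransferase, from 0.129 to 0.531 and from 592 to 1168 CPM (log2 fold change 11.31, adjusted p = 4.5e-06). In the other direction, Sult2b1, a cholesterol sulfotransferase, stood at 68.9, 149.5, 108 and 126 CPM in intestine and from 0 to 0.118 CPM in liver (log2 fold change -11.21, adjusted p = 8.41e-06), and Mgst2, a microsomal glutathione transferase, at 199.6, 239, 204 and 163 and from 0.197 to 0.384 CPM (log2 fold change -9.43, adjusted p = 1.61e-06). None of these 5 genes overlapped between tissues. The Ugt1a genes share their last exons, so their separate counts are uncertain.

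The glutathione transferases shown differed from gene to gene. Gsta1 stood at 29.7 and 30.4 CPM in the replicate 1 intestine libraries (WT and KO), 676 and 434 CPM in the replicate 2 libraries and 3.37, 0.47, 0.433 and 0.379 CPM in liver (log2 fold change -8.25 with SE 1.49, adjusted p = 0.00231), and liver WT replicate 1 held several times the level of the other 3 liver libraries. Gstm1 stood at 5.75 and 6.79 CPM in the replicate 1 intestine libraries (WT and KO), 80.1 and 117 CPM in the replicate 2 libraries and 209, 436, 271 and 249.7 CPM in liver, higher in liver (log2 fold change 2.49 with SE 0.99, adjusted p = 0.062), with the call lost without liver WT replicate 2, KO replicate 1 or KO replicate 2 (adjusted p 0.145, 0.118 and 0.111) and a log2 fold change of 3.74 without intestine KO replicate 2. Gstp1 stood at 71.8, 177, 102 and 166 CPM in intestine and 68.6, 108, 150.2 and 111 CPM in liver and was not called (log2 fold change -0.27, adjusted p = 0.521). Its sign turned to 0.098 without intestine WT replicate 2 and to 0.33 against replicate 1 alone, neither called. Gsta4, which detoxifies lipid peroxidation products, stood at 27.8 and 18.8 CPM in the replicate 1 intestine libraries (WT and KO), 607 and 364 CPM in the replicate 2 libraries and 70.4, 61.8, 67.2 and 55.5 CPM in liver, with liver between the pairs. It was not called in edgeR (log2 fold change -1.95, adjusted p = 0.136), but was called higher in intestine by DESeq2 (-2.01, adjusted p = 0.0398), in 1 edgeR fit of all 20 libraries (-1.99, adjusted p = 0.0346), with total counts (-2.44) and without intestine WT or KO replicate 1 (-2.30 and -2.38). Its log2 fold change was 1.48 against replicate 1 alone and -2.90 against replicate 2 alone, each called. Over the omission of each library in turn, Gsta4 ran from -2.38 to -0.67, with adjusted p up to 0.643. Ugt2a3 stood at 1.48 and 0.856 CPM in the replicate 1 intestine libraries (WT and KO), 211 and 150.2 CPM in the replicate 2 libraries and 490.4, 632, 760.1 and 715 CPM in liver and was not called (log2 fold change 2.85 with SE 1.52, adjusted p = 0.145) although every liver library was higher, and it was called without intestine WT replicate 2 (4.68), against either pair alone (9.09 and 1.83) and with separate means per replicate number (5.49, adjusted p = 5.63e-06). Ugt2b38 stood at 0.0462 and 0 CPM in the replicate 1 intestine libraries (WT and KO), 134 and 6.83 CPM in the replicate 2 libraries and 7.78, 22.7, 12.6 and 24.9 CPM in liver, and its sign (0.13, not called) turned with total counts and with several omissions. It was 9.17 and called against replicate 1 alone, and -1.51 and not called against replicate 2 alone, and it was called with separate means per replicate number (3.83, adjusted p = 0.0274). Within intestine, 23 phase 2 members were called higher in replicate 2 and 1 (Nnmt) in replicate 1, where 5.69% and 4.28% of all genes tested were.

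Transporters and receptors of foreign compounds were higher in liver for 13 of 27 genes (48.1%, beside 21.6% of all genes). They were higher in intestine for 5 (18.5%, beside 28%), and their median was 0.58 on the log2 scale. The count higher in intestine was 3 without liver WT replicate 2, KO replicate 1 or KO replicate 2. Slco1b2, the basolateral organic anion importer of hepatocytes, ranged from 0.114 to 0.37 CPM in intestine and stood at 1404, 2101, 1822 and 1749 CPM in liver (log2 fold change 12.85 with SE 0.54, adjusted p = 2.88e-06). Slco1a1, a related importer, stood at 100.03, 733, 543 and 643 CPM in liver, with WT replicate 1 far below the other 3, and from 0 to 0.171 CPM in intestine (log2 fold change 13.08 with SE 1.16, adjusted p = 5.65e-05). Slc15a1, the brush border peptide transporter, stood at 147, 209, 486 and 235 CPM in intestine and from 0 to 0.0854 CPM in liver (log2 fold change -12.74 with SE 0.73, adjusted p = 7.11e-06). Abcb1a, the drug efflux pump P-glycoprotein, stood at 461 and 817 CPM in the replicate 1 intestine libraries (WT and KO), 156 and 97.5 CPM in the replicate 2 libraries and 8.63, 4.70, 5.48 and 3.52 CPM in liver, higher in every intestine library and higher in replicate 1 than in replicate 2 (log2 fold change -6.10 with SE 0.82, adjusted p = 0.000511). Of the receptors, Nr1i2 (PXR) stood at 100.01, 201, 120.5 and 154 CPM in intestine and 78.3, 113, 80.9 and 119 CPM in liver, overlapping and not called (log2 fold change -0.56, adjusted p = 0.115), while total counts and limma on TPM called it higher in intestine (-1.14 and -1.20). Nr1i3 (CAR) stood at 0.462 and 0.799 CPM in the replicate 1 intestine libraries (WT and KO), 18.8 and 14.4 CPM in the replicate 2 libraries and 54.2, 62.2, 54.1 and 68.7 CPM in liver, higher in liver without overlap (log2 fold change 2.81 with SE 1.08, adjusted p = 0.0558), and its call was lost without any 1 of the 4 liver libraries (adjusted p up to 0.118).

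Of 47 endoderm transcription factors, 24 were higher in intestine (51.1%, beside 28% of all genes). Another 11 were higher in liver (23.4%, beside 21.6%) and 12 were not called (median log2 fold change -2.98). Atoh1, Neurod1 and Rfx6, known from secretory cells of the gut, had no count in liver. Hnf4a, known to act in both organs, was not called. It (chr2:163506808-163572910) stood at 524, 371, 572 and 366 CPM in intestine and 374, 634, 497 and 595 CPM in liver, overlapping (log2 fold change 0.20 with SE 0.28, adjusted p = 0.58), with a sign that turned to -0.44 with total counts and to -0.47 with limma on TPM. A missed call does not show that its levels were equal.

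Cdx2, the factor that sets intestinal identity, stood at 97.8, 54.7, 129.6 and 55.7 CPM in intestine and had no count in liver, at least 3325-fold higher in intestine, a bound up to 2 times lower if mates were counted singly. Cdx1 stood at 79.8, 35.02, 62.8 and 27.8 CPM in intestine and 0.126, 0, 0 and 0 CPM in liver (log2 fold change -10.43, adjusted p = 3.01e-05). Isx, which represses vitamin A uptake, stood at 105, 91.4, 86.9 and 75.7 CPM and had 2 counts in liver, a ratio of 5223 with a counting interval of 1446 to 43136, under the same condition as for Cyp2c66. Hnf4g, the paralog of Hnf4a, stood at 199, 227, 287 and 133 CPM in intestine and 1.13, 1.75, 0.906 and 1.40 CPM in liver (log2 fold change -7.35 with SE 0.37, adjusted p = 4.58e-06). None of these 4 genes overlapped between tissues.

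Other factors were higher in liver. Onecut1 (HNF6) stood at 6.77, 4.44, 15.9 and 8.30 CPM in liver with no count in intestine, at least 412-fold higher in liver. Cebpa, a regulator of hepatocyte metabolism, stood at 18.3, 10.5, 14.5 and 18.9 CPM in intestine and 262, 271, 283 and 278 CPM in liver (log2 fold change 4.14 with SE 0.24, adjusted p = 7.59e-06). Prox1, needed for hepatocyte outgrowth, stood at 5.43, 1.32, 7.10 and 1.75 and 245, 219.8, 177 and 218 CPM (log2 fold change 5.79 with SE 0.63, adjusted p = 0.000162). Klf15, a fasting-responsive factor, stood at 1.34, 3.02, 1.03 and 2.69 and 113, 179, 123 and 239 CPM (log2 fold change 6.34, adjusted p = 2.8e-05). The pioneer factors Foxa2 and Foxa3 stood at 2.66, 1.61, 1.08 and 1.13 and 11.8, 10.6, 11.1 and 6.31 CPM in intestine and at 31.9, 11.6, 46.9 and 29.1 and 28.5, 85.2, 34.4 and 48.1 CPM in liver (log2 fold changes 4.20 and 2.29, adjusted p 0.000336 and 0.00105). None of these 6 overlapped. Nr5a2, a bile acid regulator, stood at 37.3 and 62.2 CPM in the replicate 1 intestine libraries (WT and KO), 15.6 and 10.6 CPM in the replicate 2 libraries and 83.1, 76.1, 59.1 and 81.6 CPM in liver, overlapping, and its call (log2 fold change 1.27 with SE 0.52, adjusted p = 0.0704) was lost without intestine WT replicate 2 or liver WT replicate 1, WT replicate 2 or KO replicate 2 (adjusted p up to 0.153), while the log2 fold change was 2.02 without intestine KO replicate 1. Nr5a2 was called against replicate 2 alone (2.54) and not against replicate 1 alone (0.62).

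Gata4, Pdx1, Onecut2 and Osr2 divided by the replicate number of the intestine libraries. Gata4, which specifies the jejunum and is also made in liver, stood at 0.577 and 1.45 CPM in the replicate 1 intestine libraries (WT and KO), 82.5 and 64.4 CPM in the replicate 2 libraries and 10.7, 10.1, 9.77 and 9.52 CPM in liver. Liver lay between the pairs, with log2 fold changes of 3.38 against replicate 1 and -2.86 against replicate 2, each called. Gata4 was called higher in intestine without intestine WT replicate 1 (-2.28) and in 1 edgeR fit of all 20 libraries (-1.90, adjusted p = 0.0977). Over the omission of each library in turn it ran from -2.30 to -0.32 (adjusted p up to 0.898). Its sign turned to 0.23, not called, with separate means per replicate number. Gata6 stood at 29.03 and 27.7 CPM in the replicate 1 intestine libraries (WT and KO), 78.2 and 88.8 CPM in the replicate 2 libraries and 7.71, 5.98, 5.48 and 5.85 CPM in liver, higher in every intestine library (log2 fold change -3.16, adjusted p = 0.000649). Pdx1, the factor of duodenum and pancreas, stood at 74.1 and 51.1 CPM in replicate 2 and had no count in replicate 1 or in liver. It was at least 1639-fold higher in replicate 2 than in replicate 1, and its call against liver (adjusted p = 0.0655) was lost without either replicate 2 library or any liver library (adjusted p 0.0542 to 0.15 over all 8 omissions). Onecut2 stood at 0.485 and 0.827 CPM in the replicate 1 intestine libraries (WT and KO), 354 and 315 CPM in the replicate 2 libraries and 271, 225, 236 and 256 CPM in liver and was not called against liver (log2 fold change 0.56, adjusted p = 0.784). Against replicate 1 alone it was called higher in liver (8.58, adjusted p = 1.01e-06), as with separate means per replicate number (4.06, adjusted p = 4.46e-06), and against replicate 2 alone it was not called (-0.44). Osr2 stood at 54.6 and 106 CPM in replicate 1 and had no count in replicate 2, at least 1622-fold higher in replicate 1. Against liver, which held 2 counts of it, its call (adjusted p = 0.0179) was lost without liver KO replicate 2 (adjusted p 0.111).

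**Figure D4:**
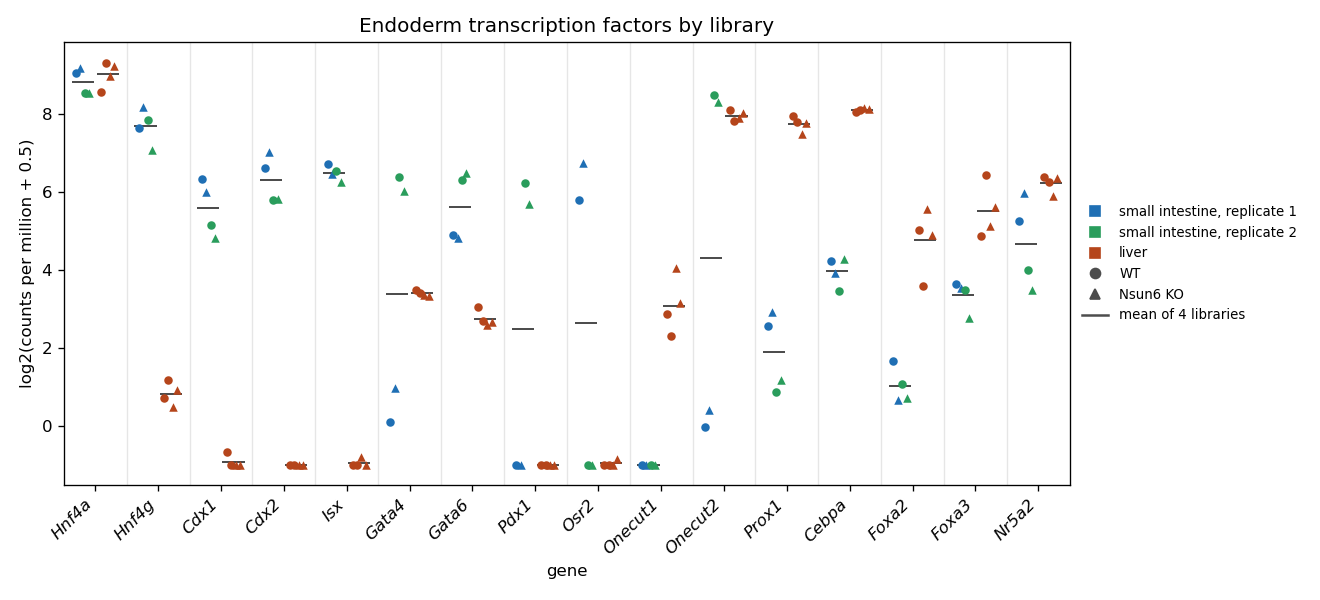
Level of 16 endoderm transcription factors as log2(CPM + 0.5) on the y axis in each library, with bars at the mean of 4 libraries. Hnf4a overlaps between tissues, Cdx2 and Isx are at or near 0 in liver, and Gata4, Pdx1, Osr2 and Onecut2 divide the intestine libraries by replicate number.

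The intestine libraries of replicate 1 and 2 were then compared directly, over both genotypes, to mark the members on which the tissue comparison depends on the libraries taken. Over all genes, 1923 of 19277 were called (9.98%), 1097 higher in replicate 2 (5.69%) and 826 higher in replicate 1 (4.28%). These counts fell to 588 and 313 without intestine KO replicate 2 and to 664 and 401 without intestine WT replicate 2. The same contrast in liver called 0 genes in edgeR (0%), with 277 genes higher in replicate 2 and 308 higher in replicate 1 at an unadjusted p under 0.05. Of the 308 members, 95 were called higher in replicate 2 and 34 in replicate 1. Without a fit, 87 members were over 1 log2 unit higher in replicate 2 in both genotypes (5.07% of all genes) and 27 in replicate 1 (4.32% of all genes), against 4 members in either direction in liver, where 9.38% of all genes in intestine and 0.301% in liver passed the same rule.

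The 5 members with the largest excess in replicate 2 were Pdx1, Ugt2b38, Cyp2b10, Onecut2 and Apoc2. Cyp2b10 had a log2 difference of 10.94 with SE 0.68, adjusted p = 0.000492, and Onecut2 a log2 difference of 9.01 with SE 0.38, adjusted p = 0.000202. The 5 with the largest excess in replicate 1 were Osr2, Fabp6, Fgf15, Saa1 and Slc10a2. Fabp6 had a log2 difference of -14.27 with SE 0.71, adjusted p = 0.00021, and Slc10a2 a log2 difference of -9.03 with SE 0.43, adjusted p = 0.00021. By list, the members called higher in replicate 2 and in replicate 1 numbered 33 and 4 of phase 1, 23 and 1 of phase 2, 11 and 1 of assembly, 9 and 3 of lipid absorption, 3 and 0 of the apolipoproteins (Apoa4, Apoc2 and Apoc3 in replicate 2), 3 and 6 of remodelling and uptake, 4 and 2 of transporters and receptors, 2 and 8 of the bile acid genes and 7 and 9 of the transcription factors. For 6 members (Cyp1a1, Cyp2b10, Gata4, Gsta4, Saa1 and Slc10a2) liver was over 1 log2 unit above one pair and over 1 below the other, as for 57 of all genes tested (0.296%). Markers of other cells were also set against the replicate number, and some lists differed by it while others did not. Of 6 Paneth markers 5 were called higher in replicate 1. The list, led by Defa24, summed to 17849 and 12681 TPM in replicate 1 and 1143 and 2408 TPM in replicate 2. All 5 adipose markers that passed the filter were called higher in replicate 1, with a summed level of 163 and 124 TPM against 7.41 and 13.7 TPM, led by Cfd. Of 7 enteroendocrine and tuft cell markers 3 (Chgb, Cck and Gip) were called higher in replicate 2. The list summed to 185 and 314 TPM in replicate 1 and 555 and 802 TPM in replicate 2. Dclk1 and Trpm5, its tuft cell markers, were not called. The gut hormone genes Gcg, Pyy and Nts, listed with the distal markers, were called higher in replicate 1 (log2 differences -3.24, -2.32 and -5.80). The sum therefore describes the genes listed and not enteroendocrine cells as a whole. Of 12 enterocyte markers 3 (Lct, Alpi and Treh) were higher in replicate 2, and the list summed to 24993 and 39508 TPM in replicate 1 and 38895 and 40077 TPM in replicate 2. Of 5 erythroid markers 4 were higher in replicate 2, with sums of 89.9 and 98.1 TPM in replicate 1 and 172 and 372 TPM in replicate 2. Of 9 immune markers 1 (Jchain) was called higher in replicate 2, and the list, led by Jchain, summed to 1361 and 227 TPM in replicate 1 (WT and KO) and 2331 and 3729 TPM in replicate 2, higher in replicate 2 in both genotypes. Of 6 goblet markers 1 (Agr2) was called higher in replicate 1. Crypt and cycling markers, of which 0 were called, summed to 359 and 133 TPM in replicate 1 and 78.4 and 90.6 TPM in replicate 2. Endothelial and stellate markers, with 1 called each way, summed to 99.2 and 127 TPM in replicate 1 and 33.1 and 68.8 TPM in replicate 2. Of 12 hepatocyte markers 2 were called higher in replicate 1. Of 6 Kupffer cell and macrophage markers 1 (Adgre1) was called higher in replicate 2. Smooth muscle markers, led by Actg2 and of which 0 were called, went opposite ways in the genotypes. They summed to 275 and 2698 TPM in replicate 1 (WT and KO) and 359.9 and 1159.7 TPM in replicate 2. Their sum was higher in KO than in WT at either number. Their part in the result was not tested.

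**Figure D5:**
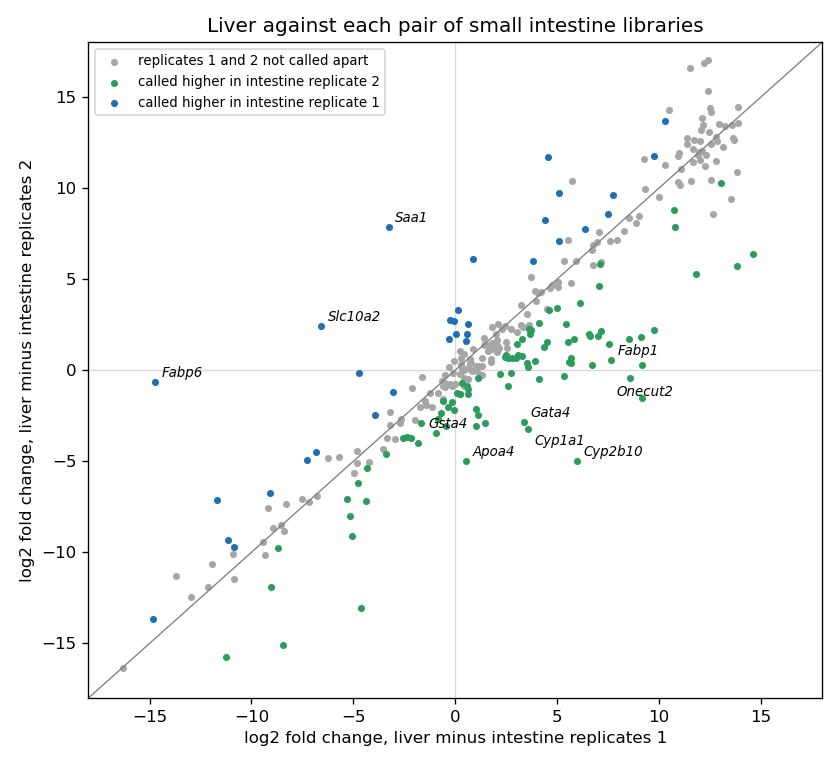
Fitted log2 fold change of liver against the replicate 1 intestine libraries (x axis) and against the replicate 2 libraries (y axis) for 303 members that passed the filter in both fits, with the line of equal values. Points off the line in green or blue were called between the intestine replicates, and Slc10a2 (-6.58 and 2.44) and Cyp2b10 (5.97 and -5.003) change sign.

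The last comparison asked whether the liver to intestine difference changed with Nsun6 genotype. In edgeR 0 of 19277 genes were called (0%) for the interaction of tissue and genotype, with 246 genes higher and 420 lower at an unadjusted p under 0.05, while DESeq2 called 3 and 19, and edgeR without a filter on low counts 129 and 143. Of the 308 members, 9 were higher and 3 lower at an unadjusted p under 0.05, or 3.9%, beside 3.45% of all genes tested. With WT libraries alone 129 of 302 members tested were called higher in liver and 68 in intestine. With KO libraries alone the counts were 129 and 71 of 303. Over all genes tested, 45.5% of calls were higher in liver with WT alone and 46.4% with KO alone. Each tissue and genotype held 2 libraries in this comparison, and the interaction fit had no term for the replicate number that divided the intestine libraries.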

How the data were processed

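RNA-seq reads were trimmed by the authors with cutadapt, aligned with HISAT2 2.1.0 and counted per gene over exons with featureCounts 2.0.1 and the GRCm38.102 annotation. The build is mm10 per the labels, while the methods name GRCh38. The deposited table holds raw read counts of 20 libraries for 55401 genes and the exon length of each gene. The command stored in it shows no strand or read-pair option, while the methods state both, so reads of overlapping or antisense genes cannot be told apart (79 members overlap exons of another gene). Of values from 10 to 50 counts, 57.5 to 58.9% were even in the 8 libraries. The 37 mitochondrial genes had 0 counts in every library. Length-scaled levels (TPM) were computed from the counts and lengths.

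The tissue comparison was fitted with edgeR 4.0.16 (R 4.3.3, robust quasi-likelihood test, TMM scaling, low-count filter, genotype as covariate) on 8 libraries, with 5 residual degrees of freedom, after the step was tested on simulated data. The replicate comparison used means per tissue and replicate number, and the genotype question an interaction term. Alternatives included DESeq2 1.42.0, limma 3.58.1, other scalings, filters and thresholds, each library left out and a replicate block. Same-numbered liver and intestine libraries deviated together with r = 0.0978 in WT and 0.0156 in KO. These values cannot show whether the numbers pair samples. Within intestine the deviations of a number were shared between genotypes (r = 0.622), and within liver they were not (0.0534). No source states a pairing, so the main fit assumed none. No 2 libraries of a group agreed within sampling noise (chi-square per degree of freedom at least 42.7). Counting intervals are exact, at 95%, and cover counting error only, with counts taken as independent reads.

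Genes named were a fixed core set, the 2 called members per list and direction with the largest fold and no overlap, the 5 members per direction differing most between the intestine replicates, members whose direction turned between them, and the 5 genes per direction with the smallest p. Results for 7 members are not reported here, although list counts include them. Members and lists were chosen with earlier results of these data known. Genes of bile acid, phase 2 and other lists named only to complete a count are outside this rule. Figures were drawn with matplotlib 3.10.9.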

Additional observations from a re-analysis of the deposited data

Results flagged for a closer look

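In 5 of 143 groups of 4 libraries tested, 1 library stood far from the other 3 of its tissue. Chance gives about 1 in 20 groups, so the count was not above that rate. All 5 were in liver, and in each the library was WT replicate 1. Apoa1, the main protein of high-density lipoprotein, was 4086 CPM against 9712 to 10664 CPM in the other liver libraries. Pon1, carried by the same particle, was 1677 CPM against 2691 to 2957 CPM. Per length the gap of Pon1 was smaller, 1440 TPM against 1757 to 1934 TPM. The TMM factor of liver WT replicate 1 was 0.966, beside 0.751, 0.784 and 0.772 in WT replicate 2, KO replicate 1 and KO replicate 2. A higher factor lowers CPM, and its part in these gaps was not tested. The organic anion importer Slco1a1 was 100.03 CPM against 543 to 733 CPM, and the asialoglycoprotein receptor subunit Asgr1 was 405 CPM against 527 to 547 CPM. Gsta1, a glutathione transferase, was higher in that library, at 3.37 CPM against 0.379 to 0.47 CPM. Over the omission of each of the 8 libraries in turn, log2 fold changes of liver minus intestine ran from 0.03 to 0.68 for Apoa1, 12.32 to 13.79 for Pon1, 12.38 to 14.36 for Slco1a1, 12.22 to 12.54 for Asgr1 and -9.32 to -7.05 for Gsta1.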

How the results depend on the processing

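Of 93 named genes, 59 kept their direction and their side of the threshold in every alternative that gave a value, and 1988 of 2175 fits were unchanged in both. Causes were not tested unless the setting itself is the cause (fewer genes or samples). Of genes called higher in liver, total counts gave 2753, limma on TPM 2703 and a minimum of 10 counts in every library 2514, which also gave 2641 higher in intestine. That minimum, which removes genes absent from a tissue, left 4 apolipoproteins, 4 bile acid genes and 17 genes each of phase 1 and phase 2 higher in liver, and 8 absorption genes, 1 bile acid gene, 9 phase 1 and 6 phase 2 enzymes and 8 transcription factors higher in intestine. No apolipoprotein was called higher in intestine (0 in each) without a filter, with limma, in WT or KO alone, or with intestine replicate 1 only. Absorption genes higher in liver numbered 5 with total counts, limma, WT alone and an adjusted p under 0.05. Bile acid genes higher in intestine numbered 3 without a filter, in WT and in KO alone, and 2 with limma and with intestine replicate 2 only. Assembly genes higher in liver numbered 6 without a fold threshold and with intestine replicate 1 only (5 then higher in intestine) and 5 with separate means per replicate number. Xenobiotic transporters and receptors higher in intestine numbered 3 with an adjusted p under 0.05 and in WT alone, and 1 remodelling gene was higher in intestine in WT alone. The interaction gave 3 and 19 calls with DESeq2 and 129 and 143 without a filter.

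With the replicate block, 224 of the 231 called members were called the same way. Apolipoproteins higher in intestine then numbered 0, assembly genes higher in liver 5 and transporters and receptors higher in intestine 3, and Gata4 and Saa1 turned to 0.090 and 2.12. The block also called Dgat2 (log2 fold change 1.95, adjusted p = 0.0345), Scarb1 (2.90, 0.0675), Cyp3a11 (4.45, 0.0544) and Ugt2a3 (5.37, 0.0669) higher in liver, and did not call Apoa4 (-2.28, 0.199) or Slc10a2 (-2.14, 0.624), and it changed the call of no other named gene. Same-numbered WT and KO libraries deviated together with r = 0.622 in intestine and 0.0534 in liver, and no source says what the numbers stand for.

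Leaving out 1 library gave 3994 to 4324 genes higher in liver and 5052 to 5493 higher in intestine, 0 to 1 apolipoprotein, 2 to 5 bile acid genes and 3 to 5 transporters and receptors higher in intestine, 5 to 8 absorption genes higher in liver, 0 to 1 interaction call, 588 to 1339 genes higher in replicate 2 and 313 to 1103 higher in replicate 1.

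Signs turned for 12 genes, none of them called except Apoa4 and Slc10a2. Log2 fold changes were -0.20 for Apoa1, -0.44 for Hnf4a and -0.40 for Ugt2b38 with total counts, and -0.25 for Apoa1, -0.47 for Hnf4a and 1.52 for Saa1 with limma. With intestine replicate 1 only they were 0.52 for Apoa4, 3.58 for Cyp1a1, 5.97 for Cyp2b10, 3.38 for Gata4, 1.48 for Gsta4, 0.33 for Gstp1 and -0.054 for Hnf4a. With replicate 2 only they were -0.063 for Apoa1, -0.44 for Onecut2, 7.86 for Saa1, 2.44 for Slc10a2 and -1.51 for Ugt2b38. Separate means gave 0.17 for Cyp1a1, 0.46 for Cyp2b10, 0.23 for Gata4 and 2.42 for Saa1, and called Apoc2, Cyp3a11, Dgat2, Fabp1, Onecut2, Saa1, Scarb1, Ugt2a3 and Ugt2b38 higher in liver and Fgf15, Osr2 and Pdx1 no longer. WT alone gave -2.15 for Ugt2b38, KO alone 0.46 for Saa1, no genotype term -1.05 and all 20 libraries -0.50 for Ugt2b38. The fit of all 20 libraries also called Dgat2, DESeq2 and limma Ugt2a3, and limma Cyp3a11, higher in liver. Calls were not made with limma for Apoa4, Cd36, Fabp6, Fgf15, Nr5a2, Osr2, Pdx1 and Slc10a2, without a filter for Apoa4, Apoc3, Cd36, Fgf15, Gstm1, Nr1i3, Nr5a2, Pdx1 and Slc10a2, and with total counts for Cd36, Gstm1 and Nr5a2. With WT libraries alone, Apoa4, Apoc3, Cd36, Cyp3a13, Gstm1, Nr1i3, Pon2 and Slc10a2 were no longer called. With KO libraries alone this was so for Apoa4, Apoc3, Cd36, Cyp2c29, Cyp3a13, Gstm1, Nr1i3, Nr5a2 and Slc10a2. Cyp2c29 then had a log2 fold change of 5.79 (adjusted p = 0.121). Omissions gave -2.76 to 1.87 for Saa1 and -0.998 to 3.71 for Ugt2b38, and for Gstp1 0.098 without intestine WT replicate 2.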

Other observations

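Cell types beside hepatocytes and enterocytes differed between the tissues. All 6 Kupffer cell and macrophage markers were called higher in liver, with summed levels of 14.4 and 14.7 TPM in WT intestine, 8.56 and 24.5 TPM in KO intestine and 320.5, 306, 328 and 269 TPM in liver, led by Clec4f. All 7 enteroendocrine and tuft cell markers and all 6 smooth muscle markers were higher in intestine, as were 6 of 9 immune markers and 5 of 6 crypt and cycling markers. Of 5 erythroid markers 4 were higher in liver. Of 7 endothelial and stellate markers 5 were higher in liver and 1 in intestine. Of 5 adipose markers that passed the filter 4 were higher in intestine. Of 10 exocrine pancreas markers 2 passed the filter. Clps was called higher in intestine (log2 fold change -10.08) and Cela2a higher in liver (4.29).

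Over all genes tested, the smallest p-values for genes higher in intestine belonged to Ano9, Btnl7-ps, Cds1, Mgst2 and St14. Ano9, a membrane scramblase family member, had a log2 fold change of -9.89 (adjusted p = 2.31e-06), and St14, an epithelial serine protease, one of -8.92 (adjusted p = 2.78e-06). Those for genes higher in liver belonged to Asgr1, C1rl, Ces1b, Cyp2f2 and Vsig4. Asgr1 had a log2 fold change of 12.36 (adjusted p = 1.61e-06), and Vsig4, a complement receptor of Kupffer cells, one of 10.55 (adjusted p = 1.17e-06).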
